A study of Schizosaccharomyces pombe with 2 samples.

Results

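The genes described here encode subunits of the 26S proteasome of the fission yeast Schizosaccharomyces pombe, taken as its 19S regulatory particle and its 20S core particle. They were chosen by name: array names or current symbols of the rpn, rpt, mts and pad1 kind for 19S, and pre, pup, pam1, pts1 and scl1 for 20S, with tbp1 and pam17 left out. This gave 34 names, 20 of 19S and 14 of 20S, against 4869 gene names on the array. Of these 34, 18 of 19S and 14 of 20S were measured on both arrays, as were 4767 genes in all. The array carries rpt2 only under a name marked missing, and the probe for rpt3 was not well above background and carried a quality flag at all its spots, so neither has a value.

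The proteasome degrades proteins that carry ubiquitin chains. Its 20S core is a barrel of stacked rings, with the cutting sites inside the beta rings and a gate formed by the alpha rings. The 19S particle caps the barrel. Its base holds the Rpt ATPases, which unfold the substrate, and large scaffolds. Ubiquitin receptors bind the chain, and the lid carries Rpn11, which cuts the chain off. Cells make these subunits in matched amounts, and the genes of the budding yeast proteasome are switched on together.

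RNA of a strain labelled pob3 was set against wild-type RNA on each of 2 spotted arrays whose probes represent open reading frames. The Pob3 protein belongs to the histone chaperone FACT, and the series concerns FACT and silent chromatin at centromeres. The labels used here describe neither the pob3 allele, nor the growth of the cells, nor if separate cultures were used for them. The p-values therefore cover no more than differences of 1 array from the other, with those of a gene combined in the fit with those of all genes. Such differences may be technical. Pob3 RNA was labelled with Cy5 on replicate 1 and with Cy3 on replicate 2, and each probe was spotted in duplicate. The gap between the arrays therefore includes any dye effect of a gene. Each value below is the log2 of the pob3 signal over the wild-type signal, given per array and as mean ± SD (n = 2), with a precision set by this small number of arrays. An adjusted p is that of limma with Benjamini-Hochberg adjustment over the 4767 genes, with a threshold of 0.05.

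The median signal of gene spots lay between 1977.75 and 4441.75 in Cy3, per spot file, and between 5083.75 and 6304 in Cy5. The targeted gene, pob3, had log2 ratios of -1.40 and -1.12 on replicates 1 and 2 (adjusted p = 0.0609, with 0.00131 to 0.645 under the alternatives). The median of all genes was 0.01, and the ratios of the arrays had a Pearson r of 0.164 across all genes, which are not independent replicates. The 32 measured proteasome genes were brighter than most: on replicate 1 their median log2 brightness over both channels was 13.24, against 11.78 for all genes, and on replicate 2 it was 13.71 against 12.19. All their spots lay above background in both channels on both arrays, and 0 of their spots reached the scanner's maximum of 65535. Duplicate spots of a member differed on the log2 scale by a median of 0.143 on replicate 1 and 0.135 on replicate 2.

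Proteasome transcripts lay slightly above the centre of all genes in pob3. The highest mean was that of rpn10 at 1.33, with rpn3 next at 0.48. On single arrays rpn10 was closer to other members, at 1.01 against 0.88 for rpn5 on replicate 1. On replicate 2 it had 1.65 against 1.51 for rpt5. Differences between members were not tested. The median log2 ratio was 0.17 over the 18 measured 19S genes (1.13-fold) and 0.23 over the 14 of 20S (1.17-fold). For 19S the median was 0.03 on replicate 1 and 0.15 on replicate 2, and for 20S it was 0.12 and 0.31, so the size of both shifts depends on the array. Means above 0 were found for 12 of 18 genes of 19S and 12 of 14 of 20S, against 51.6% of all genes. RNA of whole cultures was measured, so a change in the share of cells that express a gene and a change in its level per cell cannot be told apart.

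Of the 32 genes, 0 passed the limma test in either direction. Over the whole array, 353 genes had an unadjusted p under 0.05. Of all genes 21 passed as higher, or 0.441%, and 4 as lower, or 0.0839%. At an unadjusted p of 0.05, 1 proteasome gene was higher, rpn10, against 4.34% of all genes. A share of 1 in 32 is near that background. Both arrays lay above 0 for 6 of the 18 genes of 19S and 7 of the 14 of 20S, against 26.7% of all genes. Both lay below 0 for rpn2 alone among the 32, against 26.1%. The remaining 18 genes had opposite signs on the arrays, a share of 56.2%, against 47.2% of all genes.

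**Figure D1:**
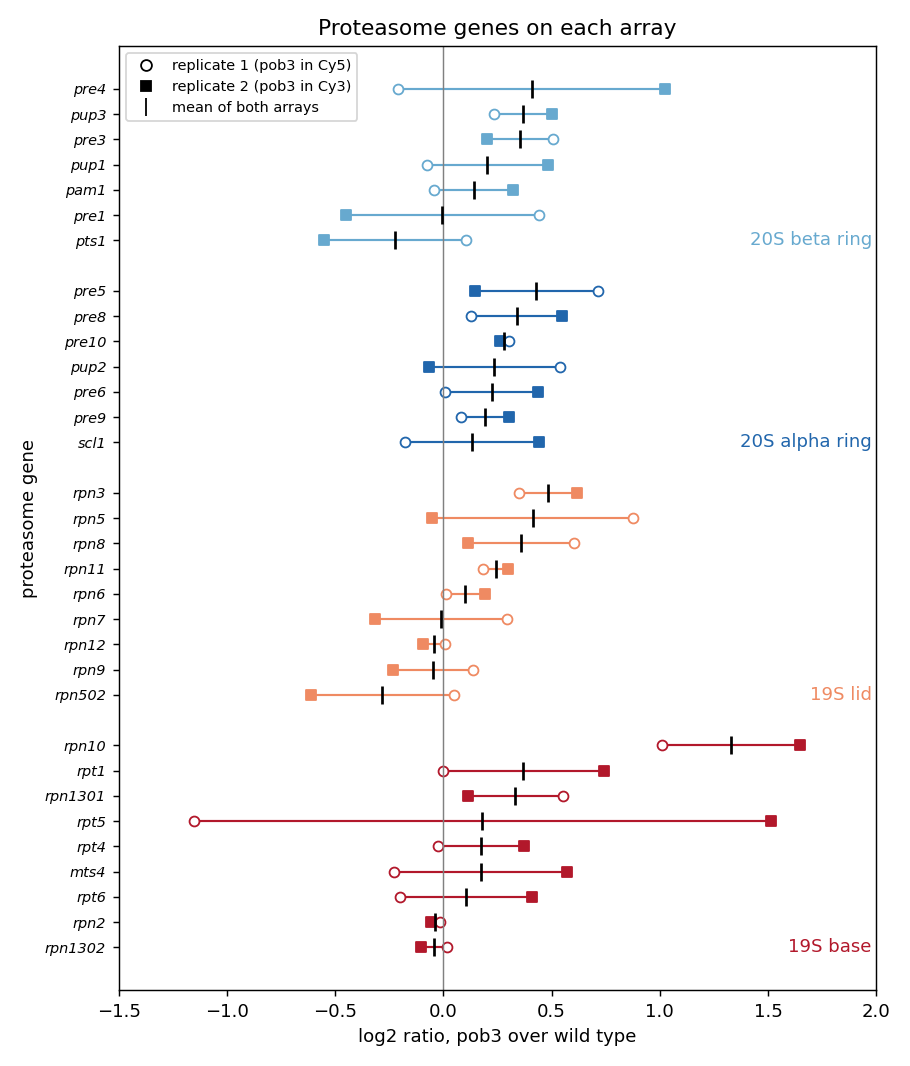
Log2 ratios of pob3 over wild type for the 32 measured proteasome genes, grouped by subcomplex. Open circles are replicate 1, filled squares replicate 2 and black bars their mean. The means of 24 genes lie right of 0, and rpn10 is the only member over 2-fold on both arrays, while rpt5 lies on opposite sides.

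Among the ubiquitin receptors of the 19S particle, rpn10 had the highest ratio of all proteasome genes. Its product binds ubiquitin chains and sits between base and lid. On replicate 1 its spots had signals of 6300 and 7214 in the pob3 channel, against 866.5 and 1194 in the wild-type channel. On replicate 2 they had 7308.5 and 9579.5 for pob3, against 3300.5 and 3373 for wild type. The pob3 channel was thus the brighter one at every spot, whichever dye it carried. The same held for rpt5, whose normalised ratios were -1.15 and 1.51. Over all genes Cy5 was the brighter dye on both arrays. On replicate 1, where pob3 RNA carried Cy5, its channel was the brighter one even for the pob3 gene (2057 against 1429 at the first spot). Raw signals on that array thus do not by themselves show a higher ratio.

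After normalisation the rpn10 spots gave 1.12 and 0.90 on replicate 1, and 1.46 and 1.84 on replicate 2. The gene's mean was 1.33 ± 0.45, or 2.51-fold, with a 95% confidence interval of 0.74 to 1.92 from limma and an adjusted p of 0.0609, which missed the threshold. It ranked 29th of 4767 genes from the highest, and it was the 1 proteasome gene over 2-fold higher on both arrays, against 0.734% of all genes. The test result depended on the processing. The adjusted p was 0.0187 without background correction, 0.00154 with print-tip loess, which fits a curve for each print block (mean 1.57), and 0.0331 with flagged gene spots kept in the loess curve. It was 0.0579 with the curve fitted on all spots but controls, and 0.0870 on the unflagged ones of these. The curve used here was chosen from these 4 with their results known. The adjusted p of rpn10 was 0.689 with median centring, where 0 genes passed in all. It was 0.0902 without a filter on spots and 0.0650 with both channels required above background. The submitters' values for replicate 2 held no value for rpn10.

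Another receptor, Rpn13, is encoded by a pair of genes. The ratio of rpn1301 was 0.55 on replicate 1 and 0.11 on replicate 2 (0.33 ± 0.31, adjusted p = 0.824). That of rpn1302 was 0.02 and -0.10 (-0.04 ± 0.08, adjusted p = 0.981). The interval of rpn1301, -0.24 to 0.90, overlaps that of rpn10, and differences between these genes were not tested.

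The Rpt proteins are the ATPases that form the motor ring of the base. The measured members rpt1, rpt4, rpt5 and rpt6 were all below 0 on replicate 1 and above 0 on replicate 2, the order found for 24.7% of all genes. For rpt1 the ratios were -0.004 and 0.74, for rpt4 -0.02 and 0.37, and for rpt6 -0.20 and 0.41. On replicate 1 rpt1 and rpt4 were close to 0, with duplicate spots on both sides of it, so their signs there carry little.

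The split was largest for rpt5, at -1.15 on replicate 1 and 1.51 on replicate 2, with a mean of 0.18 ± 1.89 (adjusted p = 0.943) and an interval of -0.88 to 1.24. Duplicate spots of rpt5 were close to each other, at -1.19 and -1.12 on replicate 1 and 1.46 and 1.56 on replicate 2. It was 1 of 13 genes on the array that were over 2-fold lower on replicate 1 and over 2-fold higher on replicate 2. With print-tip loess its ratios were -0.92 and 0.76, and only 1 of the 4 Rpt genes, rpt5 itself, kept this order of signs. The part of print position and of the dye in these values was not tested.

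**Figure D2:**
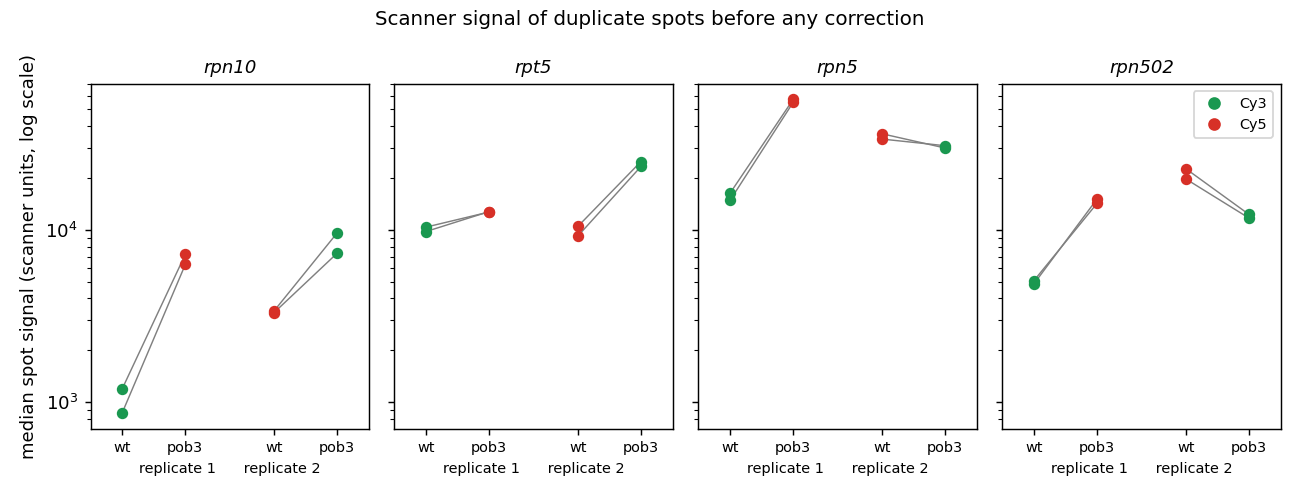
Scanner signals of duplicate spots, before any correction and on a log axis, for rpn10, rpt5 and the probes named rpn5 and rpn5-b (rpn502), with green points for Cy3 and red for Cy5. For rpn10 and for rpt5 the pob3 signal is above the wild-type signal in both dyes. For rpt5 the strains are close on replicate 1 and the pob3 signal is over 2-fold the wild-type signal on replicate 2.

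The large scaffolds of the base did not stand out. The ratios of mts4, which encodes Rpn1, were -0.23 and 0.57 (0.17 ± 0.56, adjusted p = 0.933). Those of rpn2 were -0.02 and -0.06 (-0.04 ± 0.03, adjusted p = 0.985), with a 95% confidence interval of -0.59 to 0.51. Over the 9 measured base genes the median was -0.02 on replicate 1 and 0.41 on replicate 2.

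Among lid genes 9 of 9 were above 0 on replicate 1 and 4 of 9 on replicate 2, against 49.2% and 51.4% of all genes, with medians of 0.18 and -0.05. The members did not all follow that order, since rpn3, rpn6 and rpn11 were higher on replicate 2. On replicate 1 rpn6 (0.01), rpn12 (0.009) and rpn502 (0.05) were close to 0, with duplicate spots on both sides of it. Their signs there thus carry little. Duplicate spots of rpn11 also lay on both sides on that array, at 0.38 and -0.01. With median centring 7 and 5 of the 9 were above 0, with medians of 0.13 and 0.06. The median of their means was 0.10. With print-tip loess 8 of 9 were above 0 on replicate 1 and 5 of 9 on replicate 2. The deubiquitinase gene rpn11 had 0.18 and 0.30 (0.24 ± 0.08, adjusted p = 0.883). Its partner gene rpn8 had 0.60 and 0.11 (0.36 ± 0.35, adjusted p = 0.811).

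The remaining lid genes encode scaffold subunits. The highest was rpn3, at 0.35 and 0.62 on the arrays (0.48 ± 0.19, adjusted p = 0.723), with an interval of -0.07 to 1.04. Means nearer to 0 were found for rpn6 (0.10, from 0.01 and 0.19), rpn12 (-0.04, from 0.009 and -0.09), rpn9 (-0.05, from 0.14 and -0.23) and rpn7 (-0.01, from 0.29 and -0.32). The last of these had arrays on opposite sides of 0 by about equal amounts.

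The lid subunit Rpn5 has a pair of genes, rpn501 and rpn502, and the array has a pair of probes. The probe named rpn5 matches both genes by name, so it cannot be assigned to one of them, and the probe named rpn5-b matches rpn502. Near-identical copies may bind each other's probe. The rpn5 probe gave 0.88 on replicate 1 and -0.05 on replicate 2 (0.41 ± 0.66, adjusted p = 0.798), and the rpn502 probe gave 0.05 and -0.61 (-0.28 ± 0.47, adjusted p = 0.874). On each array rpn5 lay above rpn502, and both were lower on replicate 2. The mean of rpn502 was the lowest of the 32 genes here, but it was -0.05 with print-tip loess, where that of rpt6 was the lowest at -0.19. The mean of the rpn5 probe was 0.18 with median centring and 0.24 with print-tip loess. The gene dss1, whose product is also called Rpn15, was not among the names chosen because rpn15 is only its synonym. It had 0.66 and -0.11 (0.28 ± 0.54, adjusted p = 0.879, and a mean of 0.15 with print-tip loess). It was thus above 0 on replicate 1 and below it on replicate 2, like 5 of the 9 lid genes and 1074 of all 4767 genes. Of these 5, rpn9 and rpn12 lost that order with print-tip loess, and rpn5 and rpn502 with median centring.

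All 7 measured genes of the 20S alpha ring had means above 0, between 0.13 and 0.43, with an SD across genes of 0.10, against 0.23 for the beta ring. With print-tip loess these SDs were 0.16 and 0.11. Between the arrays the 7 alpha genes had a Pearson r of -0.777, given as a description. Both arrays were above 0 for 5 of the 7, against 26.7% of all genes. With print-tip loess pre10 (-0.008), pre6 (-0.29) and pre9 (-0.41) were below 0 on replicate 2, and pre8 (-0.07) on replicate 1. In that setting pup2 (0.57 and 0.006) was above 0 on both. The closest arrays were those of pre10, at 0.30 and 0.26 (0.28 ± 0.03, adjusted p = 0.848).

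The highest alpha gene was pre5, at 0.71 and 0.15 (0.43 ± 0.40, adjusted p = 0.762). The ratios of the others were, for pre8, 0.13 and 0.55, for pup2 0.54 and -0.07, for pre6 0.007 and 0.44, and for pre9 0.08 and 0.30. The lowest was scl1, at -0.18 and 0.44 (0.13 ± 0.44, adjusted p = 0.933). The intervals of all 7 genes included 0, for example -0.15 to 1.01 for pre5. With print-tip loess the median of the alpha genes was 0.06 in place of 0.23, and pre6 (-0.02) and pre9 (-0.04) changed sign.

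The beta ring carries the cutting sites. Of the genes for its active subunits, pre3 (beta-1, caspase-like) had 0.50 and 0.20 (0.35 ± 0.21, adjusted p = 0.807). For pup1 (beta-2, trypsin-like) the ratios were -0.08 and 0.48 (0.20 ± 0.39, adjusted p = 0.919). For pts1 (beta-5, chymotrypsin-like) they were 0.10 and -0.55 (-0.22 ± 0.47, adjusted p = 0.904), the lowest mean of 20S. The means of these genes thus did not share a sign, but all their intervals included 0. With print-tip loess the means were 0.17 for pre3, 0.12 for pup1 and -0.003 for pts1.

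Of the beta subunits without a cutting site, pup3 was above 0 on both arrays, at 0.23 and 0.50 (0.37 ± 0.19, adjusted p = 0.793). The widest gap was that of pre4, at -0.21 and 1.03 (0.41 ± 0.87, adjusted p = 0.822), and its duplicate spots on replicate 1 had opposite signs, 0.11 and -0.53. The ratios of pre1 were 0.44 and -0.45, with a mean of -0.005, and those of pam1 were -0.04 and 0.32. Over the 7 beta genes the median was 0.20, with both arrays above 0 for 2 of them, against 26.7% of all genes.

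**Figure D3:**
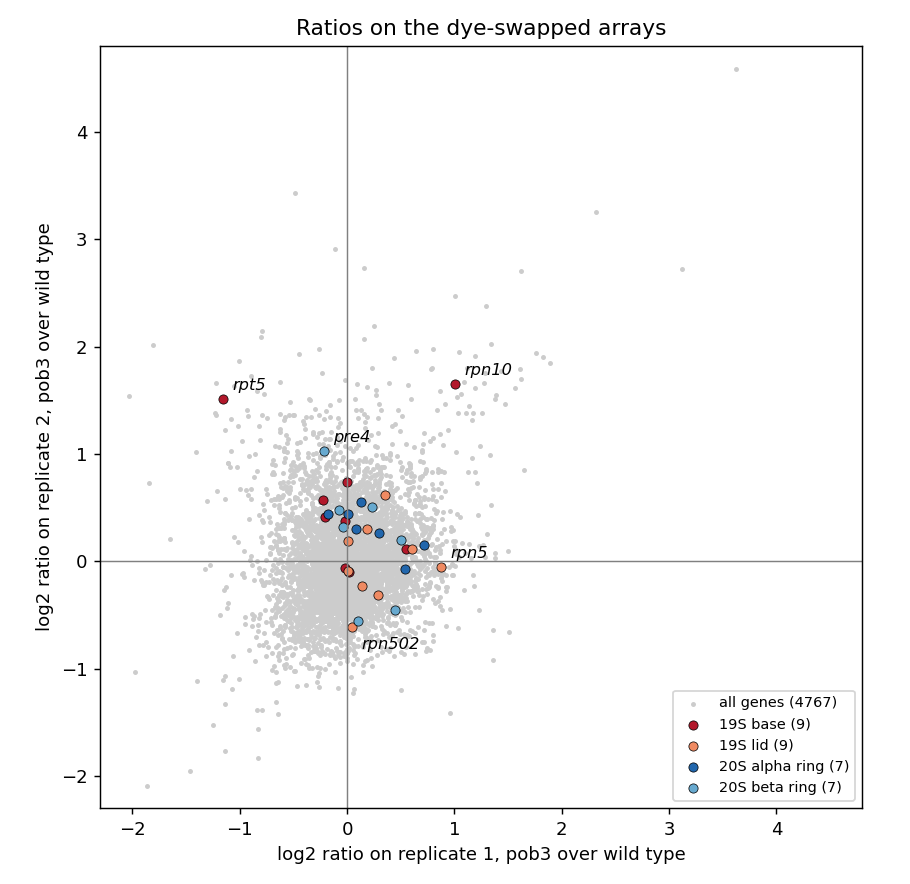
Log2 ratio of each gene on replicate 1 (horizontal) against replicate 2 (vertical), with all 4767 measured genes in grey and proteasome genes in colour. Most proteasome genes lie within the cloud, rpn10 lies at its upper right and rpt5 at its upper left.

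Across the 32 genes, a high ratio on one array did not go with a high ratio on the other: Pearson r was -0.258 and Spearman rho -0.361, given as a description of genes that share the same arrays. The median SD between arrays was 0.33 for 19S and 0.35 for 20S, against 0.26 for all genes. The ratios of 15 of the 32 genes differed by over 0.5 between the arrays, as did those of 1670 of all 4767 genes. Medians were 0.18 for the 13 members on chromosome I, 0.20 for the 12 on chromosome II and 0.31 for the 6 on chromosome III, the rpn5 probe being left unplaced. Print-tip loess moved many members. Such moves were not counted over all genes, so they are not known to be particular to the members. Of the 32 means, 12 came nearer to 0 by over 1.5 times, 4 went farther from it by as much, and 7 changed sign. Among the first were mts4 (0.03), rpn3 (0.31), rpn1301 (0.21), pre10 (0.06), pre8 (0.15), scl1 (0.02), pre3 (0.17), pup1 (0.12), pre4 (0.27) and pts1 (-0.003). Among the second were rpn6 (0.26), rpn11 (0.40) and rpn12 (-0.18). The difference between the 19S and 20S medians, 0.17 and 0.23, was smaller than the gap between the arrays for either particle and was not tested.

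The shift of the proteasome genes was set beside genes that act with the proteasome, in lists chosen with earlier results of these data known. In each of these lists 0 genes passed the limma test in either direction. An unadjusted p under 0.05 was found for 1 gene of the assembly list, 1 of the COP9 list and 3 of the meiosis list, against 7.41% of all genes. The 5 measured genes for assembly, activation and tethering had a median of 0.13, with 4 means above 0. Among them ecm29, whose product binds both particles, had 0.19 and 1.35 (0.77 ± 0.82, adjusted p = 0.606). The assembly chaperone gene nas2 had 0.13 ± 0.16 (-0.13 with print-tip loess), and cut8, which tethers proteasomes to the nucleus, had 0.19 ± 0.21 (0.04 with print-tip loess).

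Ubiquitin genes could not be compared, because most of their signals were at the scanner's maximum. Of the 5 measured, 3 were saturated in every channel of every spot on both arrays, among them ubi1, and ubi2 had 3 saturated channels on each array. The polyubiquitin gene ubi4, saturated in part, had 0.14 (-0.07 with median centring). The E1 enzyme gene ptr3 had no match among the array names.

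The 10 genes for shuttle factors and the Cdc48 segregase had a median of -0.06. Among them rhp23, a shuttle that brings ubiquitinated proteins to the proteasome, had -0.17 and -0.96 (-0.56 ± 0.56, adjusted p = 0.708). The segregase gene cdc48 had -0.28 and -0.55 (-0.41 ± 0.19, adjusted p = 0.762), with a mean of -0.11 with print-tip loess, and npl4, of its cofactor, had 0.17 ± 0.37.

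The 18 deubiquitinase genes had a median of 0.03 and spread to both sides, with ubp3 (-0.55 ± 0.01, adjusted p = 0.675) and ubp8 (-0.47 ± 0.08, adjusted p = 0.735, and a mean of -0.25 with print-tip loess) below 0 on both arrays and ubp9 (0.51 ± 0.16, adjusted p = 0.708) above 0 on both. The COP9 signalosome is a complex built like the lid, and its 5 measured genes had a median of 0.03. Its highest members were csn1, at 0.70 and 0.80 (0.75 ± 0.07, adjusted p = 0.467, and a mean of 0.48 with print-tip loess), and csn2, at 1.00 and 0.11 (0.56 ± 0.63, adjusted p = 0.715), while csn3 had -0.04 (0.05 with print-tip loess). Markers of meiosis and sporulation, as a sign of other cell states in the cultures, had a median of 0.39 over 9 measured genes, 7 of them above 0. Their median was 0.05 on replicate 1 and 0.53 on replicate 2, so it rests mainly on 1 array. The lowest was rec12, named after its value was seen, at -0.17 and -0.75. Of these 0 passed the test, and the highest mean was that of spo5 at 1.30 ± 0.93 (adjusted p = 0.157, and 0.0100 with print-tip loess), followed by meu13 at 0.71 ± 0.76 and spo6 at 0.58 ± 0.06. Their part in the proteasome values was not tested.

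**Figure D4:**
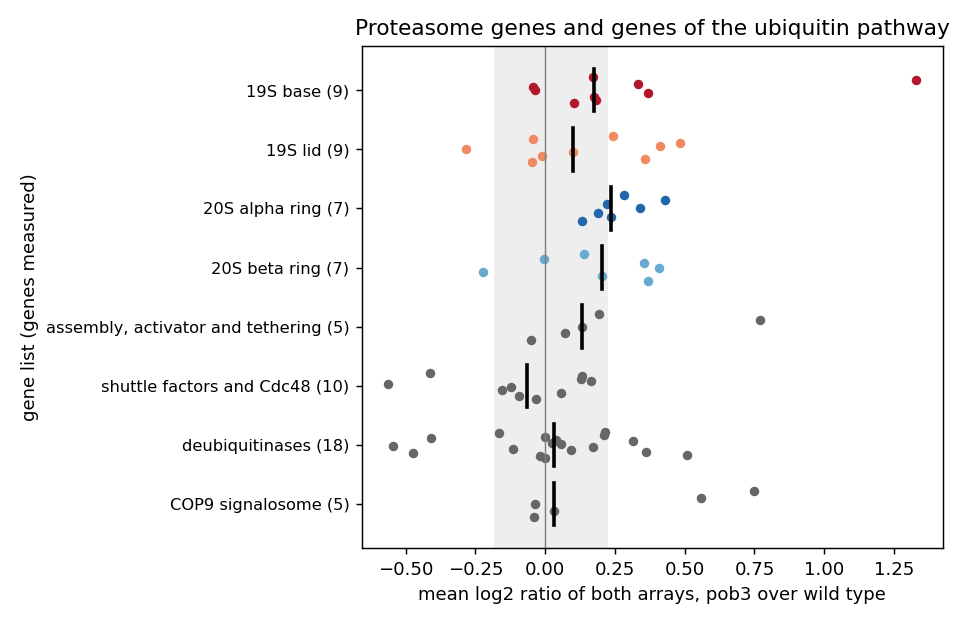
Mean log2 ratio of each measured gene (points) and median (black bars) of the proteasome subcomplexes and of lists of genes of the ubiquitin pathway. The grey band spans the quartiles of all genes, -0.18 to 0.22. The medians of both 20S rings lie near its upper edge, that of the shuttle factors and Cdc48 lies below 0, and the point at the far right is rpn10. Ubiquitin genes are not drawn, since most of their signals were saturated.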

How the data were processed

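The deposited scanner intensities are medians of a spot and its surroundings, per the file headers, in a pob3 and a wild-type channel (4 files of 5760 spots), and the labels give the dyes. The authors also deposited log2 ratios. On replicate 2 these had r = 0.974 with the ratios computed here (6260 gene spots), as pob3 over wild type. On replicate 1 they lie on 0 gene spots, so scale, centring and direction stay unknown. Column medians were -0.12 and -0.04.

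Background was corrected by normexp (offset 50), and each file was normalised by loess (limma 3.58.1, R 4.3.3). For the curve 4 sets of spots were tried: unflagged gene spots, all gene spots, all spots but controls, and the unflagged ones of these. Unflagged gene spots were kept once the number of genes past the threshold (25, 43, 31 and 14) and the p of rpn10 under each were known, partly because 25 equals the count of an earlier processing. Spots were used with flag 0 and a signal above background by 2 background SDs in Cy3 (the file gives 1 SD, with no channel) or 1.5 times in Cy5, limits that earlier processing had set with the files in view. Spots were averaged per gene and array, and the mean of 2 arrays was tested against 0 with lmFit and eBayes (1 residual and 9.6 prior degrees of freedom). In 20 simulated data sets of 4767 genes, 200 genes were changed. A median of 45.5% of 2-fold and 100% of 4-fold changes was found, and 7.52% of calls were false. The simulated noise was independent and normal, drawn from the prior of this same fit (SD 0.37), with no effect of dye or print position. These rates therefore need not hold for the arrays themselves.

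Names were matched to the table of assembly ASM294v3 (4609 of 4869 to 1 locus). All members were named, and the 3 genes of smallest p in each companion list. Members, lists and tests were chosen with earlier results of these data known. Ubiquitin genes, mostly saturated, were left out of the comparison of lists. The symbol pac2, which is no proteasome factor in S. pombe, left the assembly list after names were matched. Promoter motifs and sequences were not analysed here.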

Additional observations from a re-analysis of the deposited data

How the results depend on the processing

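The test was already paired, since each array sets pob3 against wild type. The arrays form 1 group, so no further pairing was possible. The 19S median of 0.17 and the 20S median of 0.23 stayed at 0.12 to 0.18 and 0.15 to 0.26 in all settings that kept both arrays, the lowest 19S value resting on the 2 genes present in the submitters' replicate 2 values. From 1 array alone, with no test, they were 0.0328 (without replicate 2) to 0.154, and 0.12 to 0.31. The count of 19S genes past the threshold was 0. It was 1 (rpn10) without background correction, with print-tip loess and with flagged gene spots in the loess curve, and 0 in the other settings. With the submitters' values only rpn1301 and rpn1302 of 19S were present, so rpn10 could not be counted there. For 20S the count was 0 in every setting. The 6 genes of 19S above 0 on both arrays were 10 with print-tip loess and 1 of 2 with the submitters' values. The 7 of 20S were 5 with print-tip loess and 6 of 11 with the submitters' values. The 25 genes of the array past the threshold were 52 without background correction, 0 with median centring (limma), 61 with print-tip loess, 14 without a filter and 59 with the submitters' values. With the loess curve on other spots, alternatives chosen with the data in view, they were 43 (all gene spots), 31 (all spots but controls) and 14 (the unflagged ones of these). With print-tip loess the sign turned for rpn2 (0.14), rpt5 (-0.0776), rpt6 (-0.19), rpn9 (0.22), pre6 (-0.0231), pre9 (-0.0381), pre1 (0.14), nas2 (-0.13) and csn3 (0.0458), and with median centring for ubi4 (-0.0687). The cause was not tested. All used spots of the 32 genes were above background in both channels.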
